A study of Homo sapiens with 6 samples.

Results

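The ubiquitin-conjugating enzyme genes (UBE2) and the ubiquitin-specific protease genes (USP) were examined in AGO2-RIP-seq libraries of MDA-MB-231 cells, a line of mesenchymal type from a human breast cancer without hormone receptors or amplified HER2. Members were the protein-coding genes whose symbol began with UBE2 or USP followed by a digit and whose counts summed to at least 200 over the 4 mimic libraries. Of 115 genes with such a symbol, 76 met this count, namely 32 of 37 UBE2 genes and 44 of 78 USP genes. The files listed 60708 genes, of which 13078 reached the same count and were tested. Of the 39 genes that did not reach it, 26 belonged to the repeated USP17L cluster. The members with the lowest summed counts were UBE2V1 (425), USP27X (688) and USP49 (1290), and the genes just outside were USP18 (152), USP6 (102) and USP2 (99). USP6NL met the rule by its symbol but encodes a RAB GTPase-activating protein, not a protease.

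Cells received a mimic of miR-99b-5p or a negative control at 25 nM and were harvested after 18 h. Lysates were then incubated with beads carrying an AGO2 antibody, which gave an immunoprecipitated fraction (AGO2-IP) and the flow-through (FT) that the beads did not hold. Each fraction of the mimic cells was sequenced from 2 biological replicates and each fraction of the control cells from 1, which gave 6 libraries of the same cell line. The study's methods describe replicates in both conditions, whereas the labels, followed here, give a single library per control fraction. Libraries from IgG beads were not analysed here. With 1 control library per fraction, values against or within the control have no replicate check and no p-value. Because each library measured a mixture of many cells, fewer cells with a transcript and fewer copies per cell cannot be told apart.

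Gene counts ranged from 7772149 to 48544756 per library, and both control libraries lay at the low end. Mitochondrially encoded genes took 43.4% of the control flow-through counts, 3.48% of the control AGO2-IP counts and at most 0.125% of the counts in any mimic library. Read pairs with several alignments made up 73.7% and 76.7% of the control libraries, against 2.38% to 19.2% of the mimic libraries. The mesenchymal markers VIM, CD44, EGFR, CAV1 and AXL were present in all 6 libraries. The luminal markers ESR1, PGR and CDH1 stayed at or below 3.96 CPM (counts scaled to a common library total), whereas EPCAM (2.80 to 11.8) and GATA3 (8.26 to 24.8) were detected at a low level.

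Ubiquitin is attached to proteins by a cascade of E1 activating, E2 conjugating and E3 ligase enzymes, and the UBE2 genes encode the E2 step. Some UBE2 enzymes handle related modifiers such as NEDD8 and ISG15. The USP genes form the largest family of deubiquitinases, the enzymes that trim or remove ubiquitin. AGO2 is the protein that carries a microRNA to its target transcripts, mostly through pairing of the microRNA seed.

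The mature miR-99b-5p sequence (RefSeq, GRCh38.p14, chr19:51692618-51692639, plus strand) is shown with the seed, bases 2 to 8, in capitals, because the mimic is the agent that the transfections differed in. The complement of the seed was searched on the transcript strand of each member's canonical GENCODE transcript as TACGGGTA (8 bases), TACGGGT or ACGGGTA (7 bases) and ACGGGT (6 bases), where each longer motif contains the shortest. No member held the 8-base motif, which 0.604% of the 11747 protein-coding genes tested held. A motif of 7 bases or more was found in 0 of 32 UBE2 members, in 2 of 44 USP members and in 5.71% of all protein-coding genes tested. The shortest motif or a longer one was found in 2 UBE2 and 8 USP members, against 17.1% of protein-coding genes. The lines after the microRNA show the only members with 7 bases, then the UBE2 member with a 6-base match that was among the lowest in AGO2-IP, and a 6-base match in the 3′ UTR of USP8. Capitals mark the match.
hsa-miR-99b-5p: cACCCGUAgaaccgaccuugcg
USP12 coding sequence: ttgaagaattcTACGGGTtgacatcagata
USP9X coding sequence: agaacaggagaaACGGGTAttgaagagacg
UBE2L6 5′ UTR: ctgctggaggccACGGGTgccacacactcg
USP8 3′ UTR: catgcattagcaACGGGTtttaaattttta
On GRCh38 the windows lie at chr13:27069336-27069365 (USP12, minus strand), chrX:41197376-41197405 (USP9X, plus strand), chr11:57567620-57567649 (UBE2L6, minus strand) and chr15:50501806-50501835 (USP8, plus strand). A match of letters is a description of the transcript and shows no binding.

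The 2 families divided their counts differently between the fractions. UBE2 genes held 55.7% and 47.8% of the combined UBE2 and USP counts in the mimic flow-through libraries and 38.2% and 32.3% in the mimic AGO2-IP libraries. In the control libraries the UBE2 share was 56.4% in flow-through and 39.4% in AGO2-IP. All 3 AGO2-IP libraries therefore lay below all 3 flow-through libraries, and the drop was 16.5 percentage points (mean of 2 against 2) in mimic cells and 17.0 points in control cells. The 95% Wilson intervals, which cover counting error only, were widest in the control flow-through, from 55.9% to 57.0%. The share is a ratio within a library, so no scaling between libraries can move it. Without the most counted member of each family, UBE2Z and USP22, it was 58.0% and 51.8% in mimic flow-through and 37.7% and 32.1% in mimic AGO2-IP.

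**Figure D1:**
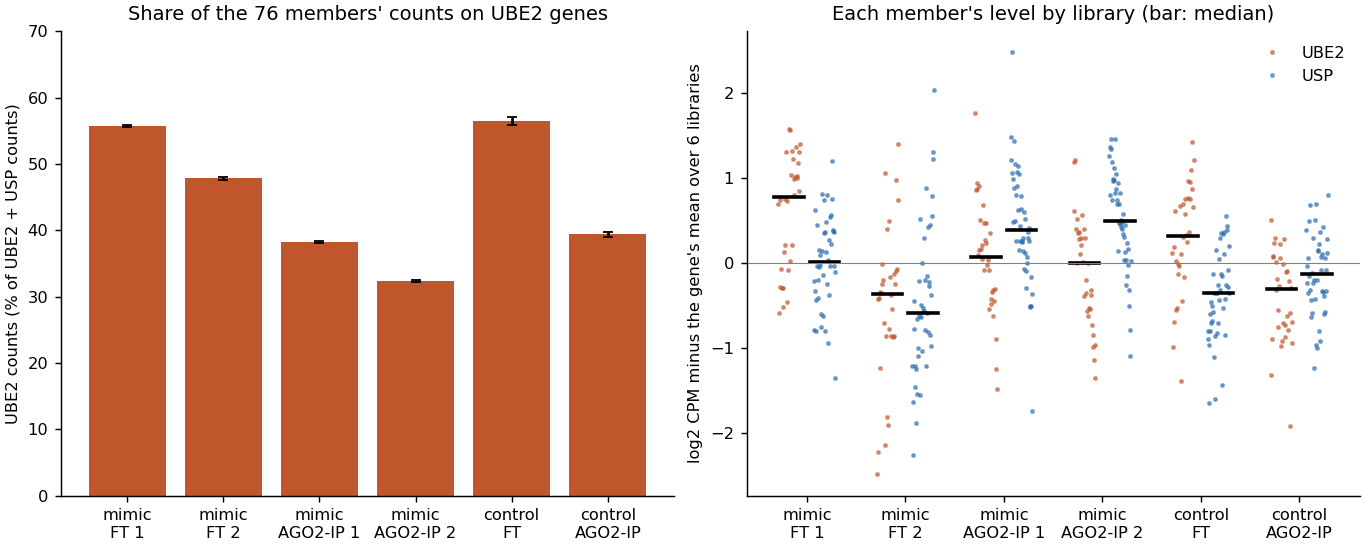
Left, share of the combined counts of the 76 members that fell on UBE2 genes in each library, with 95% Wilson intervals as error bars; the 3 AGO2-IP libraries lie at or below 39.4% and the 3 flow-through libraries at or above 47.8%. Right, log2 normalised count (CPM) of each member minus its own mean over the 6 libraries, with the family median as a bar; the UBE2 median lies above the USP median in each flow-through library and below it in each AGO2-IP library.

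Per kilobase of exon, the median UBE2 gene was more abundant than the median USP gene in every library. The median UBE2 level exceeded the median USP level by 1.66 and 1.26 on the log2 scale in mimic flow-through, by 0.90 and 0.69 in mimic AGO2-IP, by 1.71 in control flow-through and by 1.01 in control AGO2-IP. The gap was smaller in each AGO2-IP library than in any flow-through library. Summed over members, UBE2 genes held 62.9% to 71.9% of the per-kilobase counts in the flow-through libraries, 55.6% and 56.3% in mimic AGO2-IP 1 and control AGO2-IP, and 49.2% in mimic AGO2-IP 2. UBE2M, the E2 that places NEDD8 on cullins, had the highest mean level of all members (146 CPM per kilobase over the 6 libraries), followed by UBE2C (125) and UBE2S (102), which build chains for the anaphase-promoting complex. In each of the 3 flow-through libraries UBE2S lay above UBE2M per kilobase (145, 213 and 127 against 113, 109 and 94.2), so the lead of UBE2M rests on AGO2-IP. USP22, the histone deubiquitinase of the SAGA complex, led the USP genes (92.6), ahead of USP1 (62.7), which acts in DNA repair.

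In mimic cells, USP genes were on balance higher in AGO2-IP than in flow-through and UBE2 genes were split. The median log2 fold change was 0.59 over the 44 USP members, -0.35 over the 32 UBE2 members and -0.11 over all 13078 genes, so that the UBE2 median lay 0.94 below the USP median. The difference was negative for each pairing of single libraries, at -1.04, -0.40, -1.44 and -0.73. Both AGO2-IP libraries exceeded both flow-through libraries for 22 of 44 USP members and 9 of 32 UBE2 members, against 28.1% of all genes. Both lay below for 4 USP and 9 UBE2 members, against 28.5% of all genes. The log2 fold change was above 0 for 34 USP and 13 UBE2 members, against 47% of all genes, and it reached 1 for 15 USP and 3 UBE2 members, against 20%. A log2 fold change of -1 or lower was found for 3 USP and 6 UBE2 members, against 26.9%. By non-overlapping libraries the UBE2 share was close to that of all genes on either side, while fewer UBE2 members than that share passed 1 or -1, and the USP genes leaned to AGO2-IP.

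No single member passed the test. The call required at least a 2-fold difference (log2 of 1) with an adjusted p no higher than 0.05 in the quasi-likelihood test of edgeR, adjusted by Benjamini-Hochberg over all genes tested. It took in 0 of 76 members, against 0.245% of all genes higher and 0.413% lower. At an unadjusted p under 0.05 there were 8 USP members, all higher in AGO2-IP, and 4 UBE2 members, all lower, against 10.6% and 13.1% of all genes. The biological replicate was then added as a block, which pairs each AGO2-IP library with its flow-through. With it, edgeR called USP48, USP7, USP44 and UBE2V2 higher and UBE2S and UBE2L3 lower, against 4.6% and 5.08% of all genes. For USP48 the block raised the SE from 0.60 to 0.74 while the edgeR p fell from 0.00358 to 0.00262. The SE also rose for USP7, UBE2S and UBE2L3, and it fell for USP44 and UBE2V2. So the block calls of USP48, USP7, UBE2S and UBE2L3 do not rest on smaller errors. In this block fit the p of each called member was that of a normal distribution at log2 fold change over SE. Without the block the same ratio was read against a wider distribution. The p values with and without the block are therefore not directly comparable, and a lower one does not show a gain from pairing. The Wald test of PyDESeq2, the tool the study used, called USP48, USP7, USP47 and USP24 higher and UBE2L3, UBE2S and UBE2L6 lower, against 6.46% and 8.24%. The call of USP24 rests on an SE of 0.28 in PyDESeq2. DESeq2 gave USP24 the same log2 fold change of 1.27 with an SE of 0.60 and did not call it (Wald test, adjusted p = 0.129). DESeq2 called 4 UBE2 members lower and 4 USP members higher, against 8.5% and 6.74%. With the GC trend removed, edgeR called UBE2Z, USP48 and USP5 higher and UBE2E1 and UBE2L3 lower, against 4.58% and 2.24%, and together with the block 4 UBE2 and 11 USP members higher and 7 UBE2 members lower, against 14.9% and 9.04%. Without a count filter it called 2 USP members higher, against 0.96%.

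The flow-through libraries differed from each other far more than the AGO2-IP libraries did. Over the members, the SD of the log2 difference between replicates was 1.29 in flow-through and 0.49 in AGO2-IP (1.44 and 0.84 over all genes). The UBE2 median was 1.15 lower in flow-through 2 than in flow-through 1, and the USP median 0.66 lower. This difference followed the GC content of the transcripts, with a Spearman rho of 0.757 across the 32 UBE2 and 0.780 across the 44 USP genes, where all genes share the same libraries. Without flow-through 1 the UBE2 median was 0.42 and the USP median 0.98, and without flow-through 2 they were -0.84 and 0.42, so the direction of the UBE2 median rests on flow-through 1 while UBE2 stayed below USP. Without flow-through 1, edgeR called 6 UBE2 and 16 USP members higher and 3 UBE2 and 4 USP members lower, against 20.2% and 20.6% of all genes, and without flow-through 2 it called 3 UBE2 members lower, against 3.4%. With the GC trend removed the family difference was -0.95, while single members and calls moved as given.

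**Figure D2:**
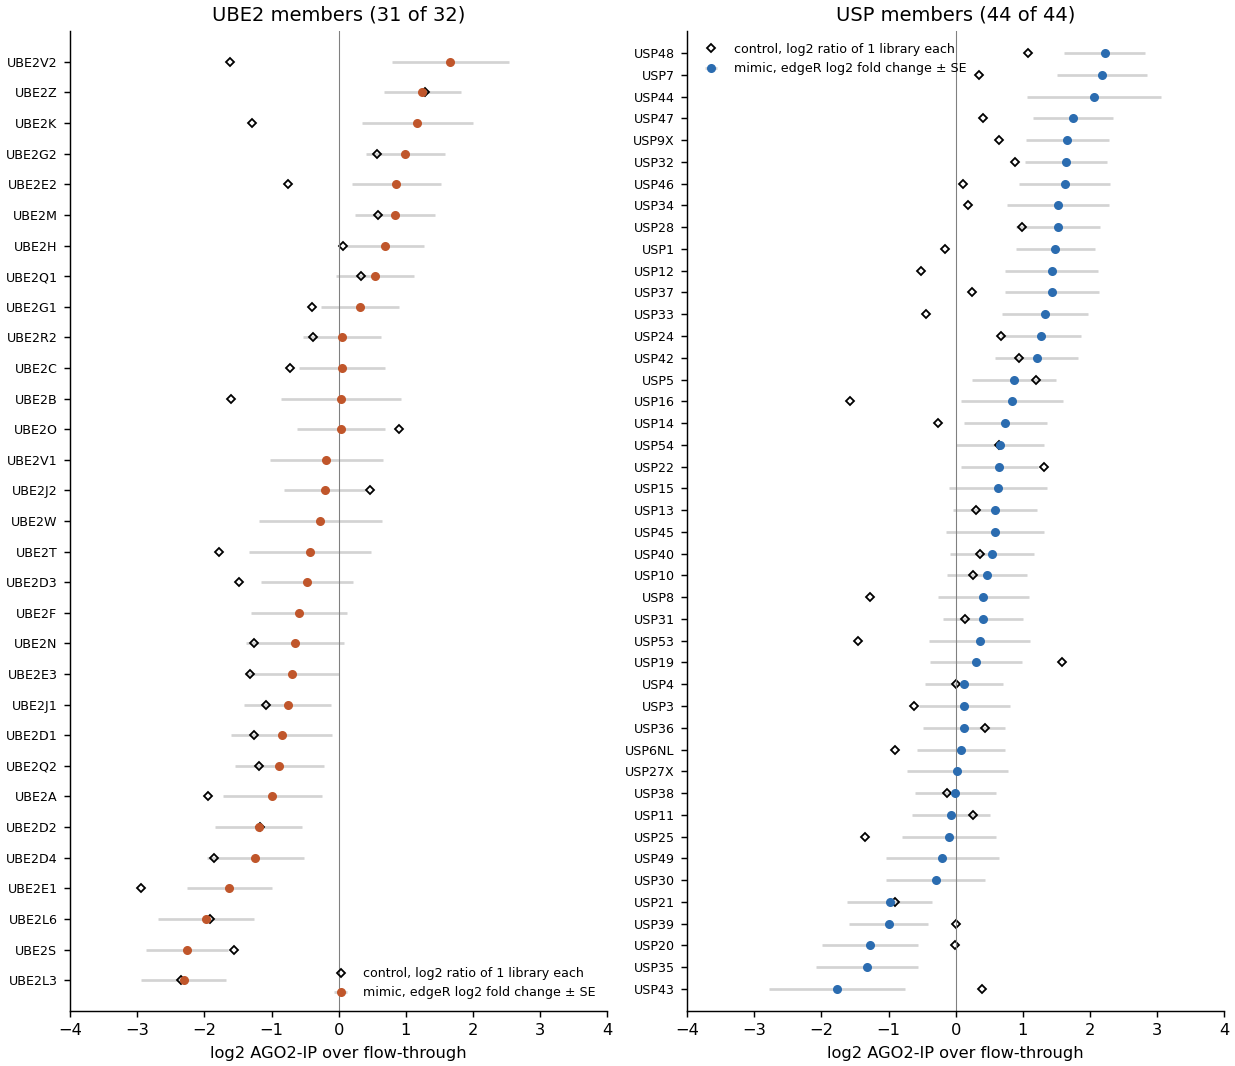
Log2 ratio of AGO2-IP over flow-through of UBE2 (left) and USP (right) members, sorted by the mimic value; filled points are the edgeR log2 fold change of 2 against 2 mimic libraries with its standard error, and open diamonds are the control ratio of 1 library each, absent where the control counts were too low. Most USP points lie above 0, the UBE2 points range from -2.31 to 1.66, and the control diamonds of the lower UBE2 members lie below 0 as well.

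Among the UBE2 genes with many ligase partners, which include the UBE2D and UBE2E groups, the median log2 fold change in mimic cells was -0.77, and 2 of 10 members were above 0. UBE2L3, which supplies ubiquitin to HECT and RBR ligases, had normalised counts of 108 and 69.1 CPM in mimic flow-through, 14.7 and 21.1 in mimic AGO2-IP, 95.6 in control flow-through and 21.5 in control AGO2-IP. All 3 AGO2-IP libraries lay below all 3 flow-through libraries. The log2 fold change in mimic cells was -2.31 (SE 0.63, edgeR adjusted p = 0.0842, 0.0356 with the replicate block), and the control ratio was -2.35. UBE2E1 was also low in AGO2-IP, at 19.6 and 13.5 CPM against 54.5 and 47.7 in mimic flow-through, with 6.41 against 44.4 in the control. Its log2 fold change was -1.63 (SE 0.63, edgeR adjusted p = 0.157), and its control ratio of -2.95 was the lowest of all members. For UBE2E1 the counts of the 2 strand settings summed to 1.99 times the unstranded count. The unstranded count leaves out pairs that overlap genes on the opposite strand, so the values here cover only part of its pairs. The pairs left out cannot be assigned to UBE2E1 or to those genes.

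The 4 UBE2D paralogues, which work with a wide range of RING ligases, all had a log2 fold change below 0. UBE2D2 measured 183 and 75.7 CPM in mimic flow-through, 58.5 and 54.6 in mimic AGO2-IP, and 152 and 78.2 in the control fractions in the same order. The AGO2-IP libraries did not overlap with flow-through, and the log2 fold change was -1.19 (SE 0.64, edgeR adjusted p = 0.275). UBE2D4 (-1.24), UBE2D1 (-0.85) and UBE2D3 (-0.47) had the same sign, but flow-through 2 lay below both AGO2-IP libraries for UBE2D1 and UBE2D3. These close paralogues can share reads, and for UBE2D4 the 2 strand settings summed to 1.84 times the unstranded count, so their values are uncertain to that extent. The other two members of the list with values above 0 were UBE2E2 and UBE2H. UBE2E2 measured 34.4 and 15.4 CPM in mimic flow-through and 38.6 and 51.7 in AGO2-IP, and UBE2H, the E2 of the CTLH ligase, 116 and 130 against 185 and 213. Their log2 fold changes were 0.86 and 0.69, with edgeR adjusted p = 0.436 and 0.479.

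UBE2S and UBE2C, which act in sequence with the anaphase-promoting complex, differed from each other. UBE2S had 407 and 595 CPM in mimic flow-through, 122 and 88.0 in mimic AGO2-IP, 356 in control flow-through and 140 in control AGO2-IP. Every AGO2-IP library was below every flow-through library, and the log2 fold change was -2.26 (SE 0.61, edgeR adjusted p = 0.0820, 0.0289 with the replicate block). UBE2C had 257 and 92.7 CPM in mimic flow-through and 176 and 186 in mimic AGO2-IP. The AGO2-IP values fell between the flow-through values, and the log2 fold change of 0.05 (SE 0.65) changed sign with scaling by library size alone (-0.04).

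The E2 enzymes of DNA repair had no common direction in mimic cells, with 2 of 6 above 0. UBE2V2, the catalytically inactive partner of UBE2N, measured 50.5 and 5.56 CPM in mimic flow-through, 106 and 71.3 in mimic AGO2-IP, 33.8 in control flow-through and 12.5 in control AGO2-IP. It was above flow-through in both mimic AGO2-IP libraries and below it in the control. The log2 fold change was 1.66 (SE 0.88, edgeR adjusted p = 0.267) and 2.37 with the block (adjusted p = 0.0413), and flow-through 2 decided its size, since without flow-through 1 it was 3.95 and without flow-through 2 it was 0.78. UBE2N itself had 190 and 42.1 CPM in mimic flow-through and 71.8 and 76.1 in mimic AGO2-IP, with a log2 fold change of -0.65 (SE 0.73). UBE2T, the E2 of the Fanconi anaemia pathway, likewise had flow-through values (50.3 and 4.55) on both sides of its AGO2-IP values (20 and 20.8). UBE2V1 was near the detection limit, with 1.16 to 3.48 CPM in all libraries, and it overlaps the read-through gene PEDS1-UBE2V1, which can take its reads.

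The E2 enzymes of related modifiers lay at both ends of the family. UBE2L6, the E2 for the interferon-induced modifier ISG15, had 53.8 and 20.6 CPM in mimic flow-through and 9.16 and 9.82 in mimic AGO2-IP, with 58.2 and 17.7 in the control fractions. Its log2 fold change was -1.97 (SE 0.71, edgeR adjusted p = 0.140), and AGO2-IP lay below flow-through throughout. UBE2Z, which conjugates the modifier FAT10, went the other way, with 180 and 202 CPM in mimic flow-through, 491 and 416 in mimic AGO2-IP, 137 in control flow-through and 386 in control AGO2-IP. All AGO2-IP libraries were above all flow-through libraries, and the log2 fold change was 1.25 (SE 0.57, edgeR adjusted p = 0.215). UBE2M was 0.84 (SE 0.60), with 197 and 191 CPM against 451 and 241. Of the E2 enzymes of endoplasmic reticulum turnover and proteasomal chains, UBE2K (1.17) and UBE2G2 (0.99) were the highest, with edgeR adjusted p = 0.401 and 0.316. Flow-through 2 decided the size for UBE2K, which was 3.27 without flow-through 1 and 0.31 without flow-through 2.

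Among the USP role lists, that of the DNA damage response and p53 had the highest median in mimic cells. The median log2 fold change of the 7 listed was 1.52, and 6 were above 0 (34 of all 44 USP members, 47% of all genes). The same number had both AGO2-IP libraries above both flow-through libraries (22 of all 44 USP members, 28.1% of all genes). In the control the median ratio of this list was 0.35, beside 0.25 over the USP members with enough counts. USP48, a nuclear deubiquitinase, measured 62.8 and 46.7 CPM in mimic flow-through, 251 and 259 in mimic AGO2-IP, 58.2 in control flow-through and 141 in control AGO2-IP. Its log2 fold change was 2.22 (SE 0.60, edgeR adjusted p = 0.0831, 0.0356 with the replicate block), and the control ratio was 1.07. USP7, which deubiquitinates MDM2 and p53, had 99.9 and 37.4 CPM in mimic flow-through against 322 and 298 in mimic AGO2-IP, and 66.6 against 97.9 in the control. AGO2-IP was above flow-through in mimic and control cells, and the log2 fold change was 2.18 in mimic (SE 0.67, edgeR adjusted p = 0.103, 0.0285 with the block) and 0.35 in control.

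USP1, which acts on FANCD2 and PCNA, had 181 and 132 CPM in mimic flow-through against 469 and 408 in mimic AGO2-IP. Its control fractions were nearly level, at 130 in flow-through and 134 in AGO2-IP. The mimic log2 fold change was 1.49 (SE 0.59, edgeR adjusted p = 0.163). USP47, a base excision repair factor, reached 1.74 (SE 0.60, edgeR adjusted p = 0.128) with 63.7 and 46.5 CPM against 166 and 203. USP28 reached 1.52 and USP10 0.47, both with AGO2-IP above flow-through in each mimic library, and USP11 was the member of the list below 0 (-0.07).

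**Figure D3:**
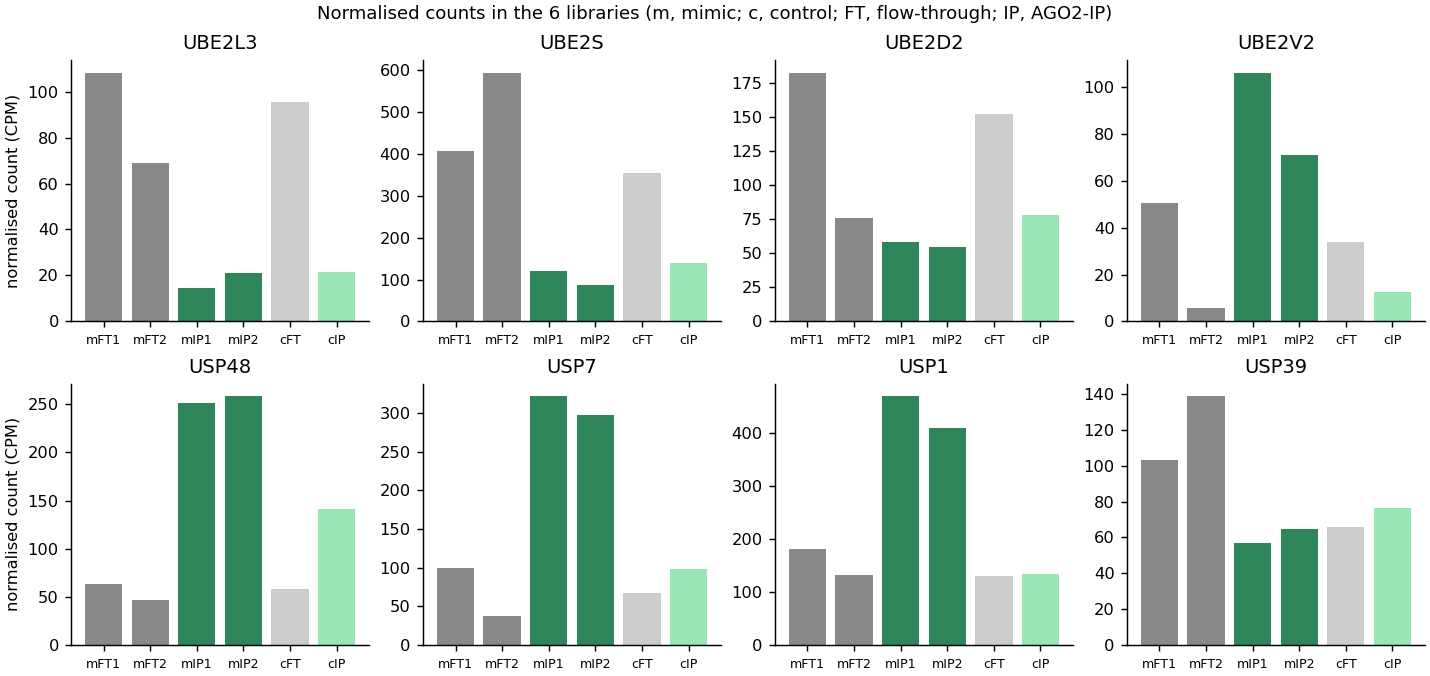
Normalised counts (CPM, scaled together over the 6 libraries) of 8 members, with mimic flow-through in dark grey, mimic AGO2-IP in dark green, control flow-through in light grey and control AGO2-IP in light green. UBE2L3, UBE2S and UBE2D2 are lower in every AGO2-IP library than in flow-through of the same cells, USP48 and USP7 are higher, and UBE2V2, USP1 and USP39 differ in direction or size between mimic and control.

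The USP genes of endosomes, receptors and signalling had a median log2 fold change of 1.38 in mimic cells, with 9 of 10 above 0 (47% of all genes) and 6 with non-overlapping fractions on the AGO2-IP side (28.1% of all genes). With the GC trend removed the mimic median of this list was 0.82. In the control its median ratio was 0.01, with 5 of 9 genes above 0. USP9X, a large deubiquitinase of many signalling proteins and 1 of the members with a 7-base motif, had 200 and 255 CPM in mimic flow-through, 485 and 954 in mimic AGO2-IP, 200 in control flow-through and 361 in control AGO2-IP. AGO2-IP was above flow-through in mimic and control alike, and the log2 fold change was 1.66 (SE 0.62, edgeR adjusted p = 0.147). USP12, the other member with a 7-base motif and a partner of WDR48, had 85.0 and 26.4 CPM against 133 and 167 in mimic and 70.3 against 56.7 in control. Its log2 fold change was 1.43 in mimic (SE 0.69, edgeR adjusted p = 0.231) and -0.51 in control. USP8, which acts on endosomal receptors, had 26.4 and 11 CPM in mimic flow-through against 23.3 and 26.5 in AGO2-IP, so the fractions overlapped. USP15 overlapped too (28.0 and 8.19 against 29.0 and 27.2). USP20 was the listed member lowest in AGO2-IP, at -1.28 (SE 0.71, edgeR adjusted p = 0.292), and this shrank to -0.06 with the GC trend removed.

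Proteasomal and free-chain USP genes were nearer to 0, with a median of 0.59 over 5 genes. USP5, which recycles free ubiquitin chains, had 81.1 and 175 CPM in mimic flow-through, 270 and 199 in mimic AGO2-IP, 40.6 in control flow-through and 107 in control AGO2-IP. The log2 fold change was 0.87 (SE 0.63, edgeR adjusted p = 0.408), and it reached 1.82 with the GC trend removed. USP14, a deubiquitinase bound to the proteasome, had 96.3 and 62.2 CPM against 96.9 and 167 and a log2 fold change of 0.74 (SE 0.62), which went to -0.01 with the GC trend removed.

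The histone and chromatin USP genes had a median of 0.12 over 8 genes. USP22 had 381 and 586 CPM in mimic flow-through, 704 and 814 in mimic AGO2-IP, 331 in control flow-through and 948 in control AGO2-IP, so it was higher in AGO2-IP in mimic (0.65, SE 0.58) and in control (1.31). USP44 was highest of this list at 2.06 (SE 1.0, edgeR adjusted p = 0.232, 0.0271 with the replicate block), but at a low level of 5.84 and 0.795 CPM in flow-through and 21.2 and 6.63 in AGO2-IP. USP21 was -0.98, with 28.3 and 32.2 CPM in mimic flow-through against 15.2 and 15.3 in AGO2-IP, and went to -0.23 with the GC trend removed.

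Few USP genes were lower in AGO2-IP. USP39, a component of the spliceosome, had 103 and 139 CPM in mimic flow-through against 56.9 and 64.6 in AGO2-IP, with 66.1 and 76.3 in the control fractions, and a log2 fold change of -0.996 (SE 0.59, edgeR adjusted p = 0.315). USP35 (-1.33) and USP43 (-1.77) were lower still, with edgeR adjusted p = 0.301 and 0.302. Both rest on flow-through 2, without which USP35 was -0.49, and with the GC trend removed they were -0.08 and -0.70. USP43 had 4.48 and 46.7 CPM in flow-through against 3.42 and 11.6 in AGO2-IP, and without flow-through 2 its log2 fold change was 0.72. USP30, the deubiquitinase of the mitochondrial outer membrane, was -0.30 (SE 0.73) at 5.36 to 10.4 CPM.

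The gap between the families was also present in the control cells, as a description of 1 library per fraction. The median log2 ratio of control AGO2-IP over control flow-through was -1.19 over the 29 UBE2 members with enough counts and 0.25 over 37 USP members, a difference of -1.43. A ratio of -1 or lower was found for 17 of 29 UBE2 and 4 of 37 USP members, against 18.1% of all 8245 genes with enough counts. A ratio of 1 or higher was found for 1 UBE2 and 4 USP members, against 15.9%. These ratios were scaled over the 2 control libraries alone and lie 0.21 below the log2 ratio of the CPM values given here for single genes, which were scaled over all 6 libraries. Scaling by library size alone moved the median of all genes from 0.01 to 0.89, and the family medians with it to -0.30 and 1.13, so the difference between families stayed at -1.43, while removal of the GC trend brought it to -0.98, beside -0.95 in mimic cells. The mitochondrial share differed between these 2 libraries as given above, and its part in the result was not tested.

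Most members whose mimic fractions did not overlap had the same direction in mimic and control, and so did most such genes among all genes tested. Both mimic AGO2-IP libraries lay below flow-through and the control ratio was below 0 for 8 of 29 UBE2 and 2 of 37 USP members, against 23.0% of all genes. Both lay above and the control ratio was above 0 for 5 UBE2 and 17 USP members, against 26.2% of all genes. Both lay above with a control ratio below 0 for 4 UBE2 and 4 USP members, against 8% of all genes, and below with a control ratio above 0 for 0 UBE2 members and 1 USP member, against 3.59%. The E2 genes of DNA repair had a control ratio of -1 or lower in 5 of 5 genes with enough counts, although 2 of 6 were above 0 in mimic cells. With scaling by library size alone, UBE2V2 (-0.74) and UBE2K (-0.40) were still below 0 in the control, whereas USP12 (0.37) and USP1 (0.73) were above it.

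**Figure D4:**
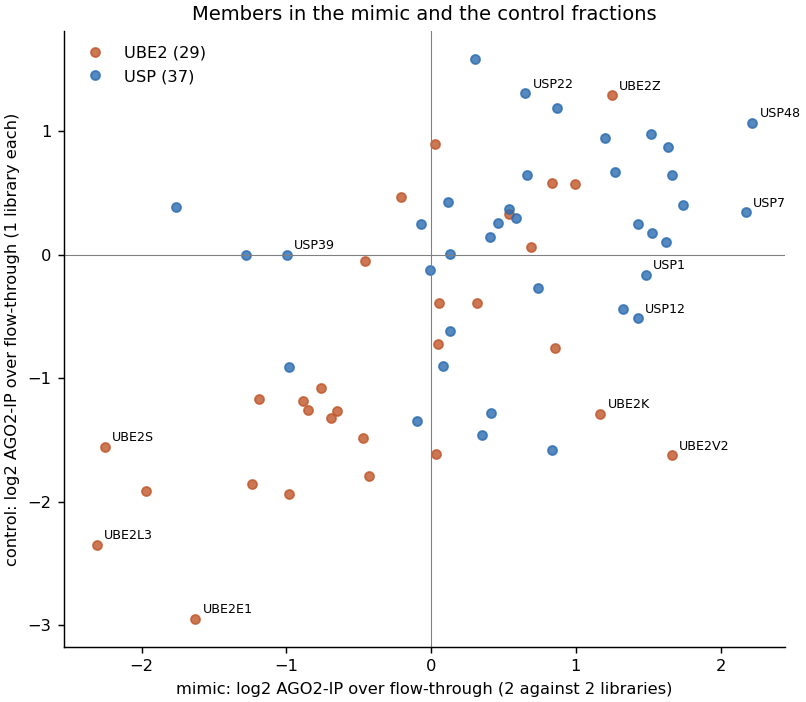
Log2 ratio of AGO2-IP over flow-through in mimic cells (x axis, edgeR, 2 against 2 libraries) and in control cells (y axis, 1 library each) for the 29 UBE2 and 37 USP members with enough control counts. The lower left holds mostly UBE2 members such as UBE2L3 and UBE2S, the upper right mostly USP members such as USP48 and USP7, and UBE2V2 and UBE2K lie at the lower right.

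The AGO2-IP libraries of mimic and control were also set side by side. These ratios compare levels in AGO2-IP and are not divided by flow-through, so they do not measure what part of a transcript AGO2 held. The median log2 ratio was 0.21 over UBE2 and 0.58 over USP members, against 0.02 over all genes, a family difference of -0.37 that was -0.33 without mimic AGO2-IP 1 and -0.06 without mimic AGO2-IP 2. Both mimic libraries exceeded the control library at least 2-fold for 4 of 32 UBE2 and 12 of 44 USP members, against 12.2% of all genes, and lay at least 2-fold below it for 0 members, against 12.1%. UBE2V2 was furthest above, at 106 and 71.3 CPM against 12.5, a log2 ratio of 2.73 that was 1.71 with the GC trend removed. UBE2K followed among the UBE2 genes, with 192 and 231 CPM against 53.6 (1.90, or 0.99 with the GC trend removed). Of the USP genes described above, USP1 had 469 and 408 CPM against 134 (1.64, or 0.87 with the GC trend removed) and USP7 had 322 and 298 against 97.9 (1.59, or 1.66). USP43 was lowest, at 3.42 and 11.6 CPM against 19.9.

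The members with a 7-base motif, USP12 and USP9X, had mimic over control AGO2-IP log2 ratios of 1.32 and 0.84, which were 0.51 and 0.24 with the GC trend removed. Members with a 6-base match alone ran both ways, among them USP8 at 1.12 and UBE2L6 at -0.96 (0.45 and -0.59 with the GC trend removed). Mimic and control libraries also differed in depth, mitochondrial share and multiple alignment, so treatment and library quality cannot be told apart. In flow-through the family medians were closer to each other, at -0.17 for UBE2 and 0.07 for USP, and their difference of -0.25 turned to 0.04 without flow-through 2. A log2 ratio of mimic over control flow-through of at least 1 was found for 1 UBE2 and 3 USP members, against 10% of all genes, and of -1 or lower for 3 UBE2 and 0 USP members, against 10.2%.

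The families also differ in properties that the rule did not use. The median coding length was 546 bases for UBE2 and 2916 bases for USP members, against 1443 over all protein-coding genes tested, whereas the median 3′ UTR length was alike at 1892 and 1884 bases and the median GC content was 45.1% and 43.8%. Over all protein-coding genes, the median log2 fold change in mimic cells was -0.77 for coding lengths up to 600 bases, -0.34 from 600 to 1000, -0.02 from 1000 to 2000, 0.17 from 2000 to 4000 and 0.50 above 4000. The 21 UBE2 members up to 600 bases had a median of -0.46, the 27 USP members of 2000 to 4000 bases 0.54, and the 8 USP members above 4000 bases 1.40. Each of these values lay above that of all genes of the same length. From 1000 to 2000 bases, 3 UBE2 members had a median of 0.54 and 9 USP members 0.13, so the order of the families was reversed there. The 1 UBE2 member of 2000 to 4000 bases had 0.03, below the USP median of that class. No USP member was 1000 bases or shorter, so most UBE2 members had no USP member of like length. The control ratio ran the same way over all genes, from -0.89 in the shortest to 0.33 in the longest class. The part of coding length in the contrast between the families was not tested.

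**Figure D5:**
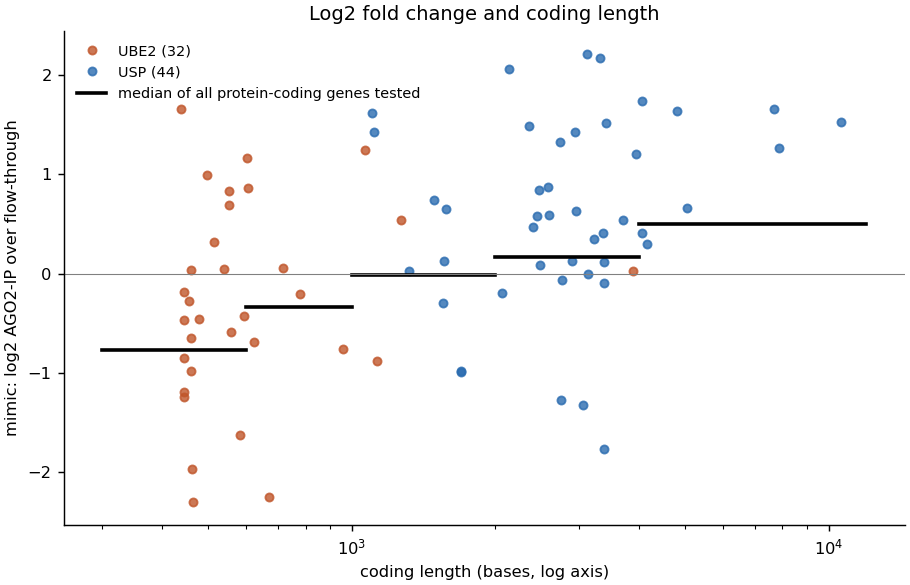
Log2 fold change of AGO2-IP over flow-through in mimic cells against coding length (log axis) for the UBE2 and USP members, with the median of all protein-coding genes tested in each length class as black lines. The lines run from -0.77 to 0.50, UBE2 members crowd at short and USP members at long coding lengths, and USP members above 4000 bases have a median of 1.40.

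The rest of the ubiquitin system, from lists of known genes, was described in the same way. HECT ligase genes, which pass ubiquitin through a cysteine of their own, had a median log2 fold change of 1.15 in mimic cells over 19 genes, with 18 above 0 (47% of all genes) and 15 with both AGO2-IP libraries above flow-through (28.1% of all genes). HERC4 was among them at 2.66 (edgeR adjusted p = 0.0698, 0.0121 with the replicate block). Deubiquitinases of other families had a median of 0.71 over 32 genes, and edgeR called 1 of them, PSMD14, the deubiquitinase of the proteasome lid, higher in AGO2-IP with counts of 3617 and 1370 in flow-through against 25390 and 25292 (log2 fold change 3.58, SE 0.67, adjusted p = 0.0457). E1 enzymes had a median of 0.76 over 10 genes and cullin-RING genes 0.54 over 22. Of the cullin-RING genes 1 was called lower, ELOB, a small adaptor subunit, at -3.24 (SE 0.63, edgeR adjusted p = 0.0490). The calls of PSMD14 and ELOB lay close to the threshold. When edgeR was fitted to protein-coding genes only, 0 of 11747 genes were called higher and 0 lower, so neither call was made there.

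Ubiquitin and its relatives went the other way, with a median of -0.63 over 10 genes. RPS27A (-2.34), which encodes ubiquitin fused to a ribosomal protein, and the modifier ISG15 (-2.29) were lower in both AGO2-IP libraries. With the replicate block edgeR called 3 of the 10 genes lower, against 5.08% of all genes. Among them were RPS27A and ISG15, with edgeR adjusted p = 0.0353 and 0.0368. The anaphase-promoting complex had a median of -0.68 over 16 genes, with 4 genes above and 5 below flow-through in all mimic libraries (28.1% and 28.5% of all genes). That median was -0.02 with the GC trend removed, and the control median of the list was 0.02, with 7 of 14 genes above 0. Other E2 enzymes had a median of 0.17 over 8 genes. Without the block, edgeR called at most 1 gene in each of these lists, against 0.245% of all genes higher and 0.413% lower. PyDESeq2 called 5 other deubiquitinases, 3 cullin-RING, 2 E1, 2 HECT and 1 anaphase-promoting complex gene higher, against 6.46% of all genes. It called 4 ubiquitin and modifier genes lower, and 1 gene each of the other deubiquitinases, cullin-RING and anaphase-promoting complex lists, against 8.24%. With the GC trend removed, edgeR called 4 other deubiquitinases and 1 gene each of the E1, HECT and anaphase-promoting complex lists higher, against 4.58%. It called 2 ubiquitin and modifier genes, 1 other deubiquitinase and 1 cullin-RING gene lower, against 2.24%.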

How the data were processed

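The 6 AGO2-RIP-seq libraries of MDA-MB-231 cells, 4 from mimic and 2 from control transfections, were analysed. Per the labels and the study's methods, the authors used FastQC 0.11.9 and cutadapt 3.5 on the reads, mapped pairs to GRCh38 with STAR 2.7.11b and deposited gene counts for an unstranded and both strand settings. The annotation release was not given in the sources used here, and 60463 of 60708 gene identifiers were named through GENCODE. STAR counts leave out pairs with several alignments and pairs in overlapping genes, which bears on paralogues, read-through genes and the 45 members that overlap a gene on the opposite strand. Pairs not assigned to a gene (21.4% to 95.0% per library) were left out. Gene counts per library ranged from 7772149 to 48544756.

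Unstranded counts were scaled by TMM and tested in edgeR 4.0.16 (R 4.3.3) with the quasi-likelihood F-test on the 4 mimic libraries, for the 13078 genes that reached 200 counts in sum, with Benjamini-Hochberg adjustment and calls at an absolute log2 fold change of at least 1 and an adjusted p of at most 0.05. SE was the log2 fold change over the root of F. Comparisons with a single control library were log2 ratios of TMM-scaled CPM with a prior count of 2. Intervals cover counting error only, since reads carried no molecular identifiers. The mimic libraries carry biological replicate numbers, and flow-through is the part of a lysate left by its pull-down, so the number pairs AGO2-IP with flow-through. Same-numbered libraries deviated together, with r = 0.324 across genes. Alternatives were the replicate block, DESeq2 1.42.0 and PyDESeq2 0.5.4, other scalings, filters and strand settings, removal of a lowess trend on GC content (span 0.2) and leaving out each library. On simulated counts at the estimated dispersion, edgeR recovered 8% of log2 changes of 2 and 59% of changes of 3 among 13078 genes.

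The members, gene lists and roles were chosen with earlier results of these data known. Named members were, per family, the 5 highest and 5 lowest log2 fold changes, the 5 highest levels per kilobase, members with a motif of 7 bases or more, and members picked for their role. Other genes named beside a count or a list (among them USP24, USP11, PSMD14, ELOB and HERC4) were chosen after their values were seen. Some members and genes of the lists are not reported here by name, and they are counted in the summaries.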

Additional observations from a re-analysis of the deposited data

Results flagged for a closer look

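Of the 39 named members, 7 had mimic fractions that did not overlap and a control ratio of AGO2-IP over flow-through with the opposite sign. This contrast of mimic and control was not tested, because only 1 control library per fraction was at hand. Over all genes with enough counts, 8% were higher in mimic AGO2-IP with a control ratio below 0, and 3.59% were lower with a control ratio above 0.

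The control log2 ratios were -1.62 for UBE2V2 (mimic 1.66), -1.29 for UBE2K (mimic 1.17), -0.75 for UBE2E2 (mimic 0.86), -0.51 for USP12 (mimic 1.43), -0.27 for USP14 (mimic 0.74) and -0.16 for USP1 (mimic 1.49). The ratio of USP39 was 0.00043 in the control and -0.996 in the mimic libraries. Scaling by library size alone left the control ratio below 0 for UBE2V2 (-0.74) and UBE2K (-0.40) and put those of UBE2E2 (0.14), USP12 (0.37), USP14 (0.62) and USP1 (0.73) above 0, while USP39 moved to 0.89. With the GC trend removed, the control ratio stayed below 0 for UBE2V2 (-0.66), UBE2K (-0.64), UBE2E2 (-0.57) and USP12 (-0.077). It was then above 0 for USP1 (0.20) and USP14 (0.079, beside -0.0065 in mimic). USP39 went to -0.19, the same sign as its mimic value, so USP1 and USP39 no longer had opposite signs. The mitochondrial share of 43.4% in the control flow-through moves with this comparison, and its part was not tested.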

How the results depend on the processing

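The UBE2 median lay below the USP median in mimic AGO2-IP over flow-through under all 16 alternatives run, from -1.25 to -0.56 against -0.94, and in the control under all 5, where GC trend removal moved it most, to -0.98. For mimic over control AGO2-IP, GC trend removal gave -0.21 and leaving out a mimic library gave -0.33 and -0.057. For mimic over control flow-through, leaving out a library gave -0.54 and 0.041. The alternatives on the replicate block, the combined fit, strand settings, PyDESeq2 and USP6NL for the family medians were chosen after seeing the data.

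No member was called in the fit as reported. With the replicate block there was 1 UBE2 call higher and 2 lower, with 3 USP calls higher, and together with GC trend removal 4, 7 and 11. GC trend removal alone gave 1 UBE2 higher, 2 lower and 2 USP higher, the fit without a count filter 2 USP higher, DESeq2 4 UBE2 lower and 4 USP higher, and PyDESeq2 3 and 4. Leaving out 1 library gave 0 to 6 UBE2 higher, 0 to 3 UBE2 lower, 0 to 16 USP higher and 0 to 4 USP lower, and the highest counts came without flow-through 1, where 20.2% and 20.6% of all genes were called. The fits without a library leave 1 sample in a group, which is assumed to vary like the other group.

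Of the 39 named log2 fold changes, some changed sign. UBE2C gave -0.044 with library size alone, -0.016 and -0.033 with the strand settings and -0.0020 with protein-coding genes only. UBE2V1 gave 0.091 without a filter and 0.0086 with the block, UBE2T 0.42 with the block, and USP30 0.028 without a filter. With the GC trend removed, USP14 gave -0.0065 (-0.021 with the block) and USP8 -0.13 (-0.12). Leaving out a library gave ranges of -0.54 to 0.92 for UBE2C, -0.80 to 0.77 for UBE2V1, -1.33 to 2.12 for UBE2T, -1.14 to 0.65 for UBE2D3, -1.39 to 0.77 for UBE2N, -1.53 to 0.31 for UBE2D1, -0.029 to 1.73 for USP15, -0.12 to 1.13 for USP8, -0.66 to 0.088 for USP30 and -2.96 to 0.72 for USP43. The cause of these changes was not tested. With 2 libraries per fraction, the biological coefficient of variation was 0.53.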
